A study of Mus musculus with 8 samples.

Results

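The genes that take up, store and burn fatty acids were examined in common dendritic cell progenitors (CDPs) from the bone marrow (BM) of mice on a high-fat diet (HFD) or control chow (CF). The members are 41 genes listed by symbol, of which 39 had a row in a table of 16119 genes, and all 39 passed the filter on low counts that left 15837 genes for testing. Ppara and Pdk4 had no row and were not analysed here. The list was drawn up by function, with earlier results of these data known, and uses no threshold on a measured value. Every gene in the table had at least 29 counts in its highest library. Why Ppara and Pdk4 have no row is not given.

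CDPs are BM cells restricted to the dendritic cell (DC) lineage, and they were sorted as CD115+ Flt3+ cells that were lineage-negative, c-kit int and Sca1 lo. The HFD group consisted of 4 libraries from C57BL/6 diet-induced obese (DIO) mice that had eaten food with 60 kcal% fat for 16 weeks, and the CF group of 4 libraries from C57BL/6 DIO-Control mice matched in age, on 10 kcal% fat. The methods describe all mice as males of the C57BL/6J background, bought at 16 weeks of age, and no engineered allele is named for either group. The paper's results give the feeding as up to 16 weeks. The libraries held 28203651 to 48409689 counts. About 50000 cells went into each library of total RNA, and the methods call the replicates independent without saying how many mice each one held. The comparison asks whether the diet changed what the progenitors transcribe.

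Fatty acids enter cells with the help of CD36 and the SLC27 transporters, and fatty acid binding proteins carry them through the cytosol. Acyl-CoA synthetases activate them, after which they are esterified and stored as triglyceride in lipid droplets under a perilipin coat, or pass into mitochondria on carnitine. There each turn of β-oxidation runs through a dehydrogenation, a hydration, a second oxidation and a thiolysis, with the electrons leaving through the electron transfer flavoprotein. Peroxisomes shorten very long and branched chains, and the peroxisome proliferator-activated receptors (PPARs) are nuclear receptors that bind fatty acids and switch on many of these genes in liver, muscle and fat.

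No member passed the test for a difference between the diets. Of the 39 tested, 0 were called (edgeR quasi-likelihood test, Benjamini-Hochberg adjusted p under 0.05), against 0.423% of all genes tested and 0.034% of protein-coding genes, to which all 39 belong, and the lowest adjusted p among members was 0.693, for Hadhb. At an unadjusted p under 0.05, 0 members were higher and 0 lower in HFD, where 3.22% of all genes were higher and 5.34% lower (3.71% and 1.67% of the 11775 protein-coding genes). DESeq2 and limma voom also called 0 members. Of all 15837 genes, DESeq2 called 64 higher and 503 lower, and limma voom 0 and 70. Each of these tools placed 0 members under an unadjusted p of 0.05. In 0 members did the HFD libraries all lie above or all below the CF libraries, a pattern shown by 2.81% and 0.951% of protein-coding genes. The median log2 fold change (HFD against CF) of the members was 0.10, with 25 of 39 above 0. That of protein-coding genes was 0.07, with 64.6% above 0. Without HFD replicate 4 these medians were 0.030 and 0.029, and without HFD replicate 2 they were 0.147 and 0.086. With library size alone as the scaling they were 0.306 and 0.263, with 38 of 39 members above 0.

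The precision of these comparisons can be read from the intervals. For 25 of 39 members the 95% interval of the log2 fold change lay inside ±0.585, so that it left out a difference of 1.5-fold in either direction, and for 36 it lay inside a 2-fold difference. Among protein-coding genes 49.3% had an interval inside 1.5-fold. The exceptions at 2-fold were Slc27a4, Acsl1 and Pparg. The SD of log2 CPM (read counts scaled by library size and TMM) between libraries of the same diet had a median of 0.23 over the members and 0.268 over protein-coding genes. Hadhb, Ppard, Hadha, Acadl and Etfa varied least, at or below the 10th percentile of protein-coding genes (0.102 to 0.122), and Slc27a4 (0.955), Pparg (1.53) and Acsl1 (0.719) varied most.

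**Figure D1:**
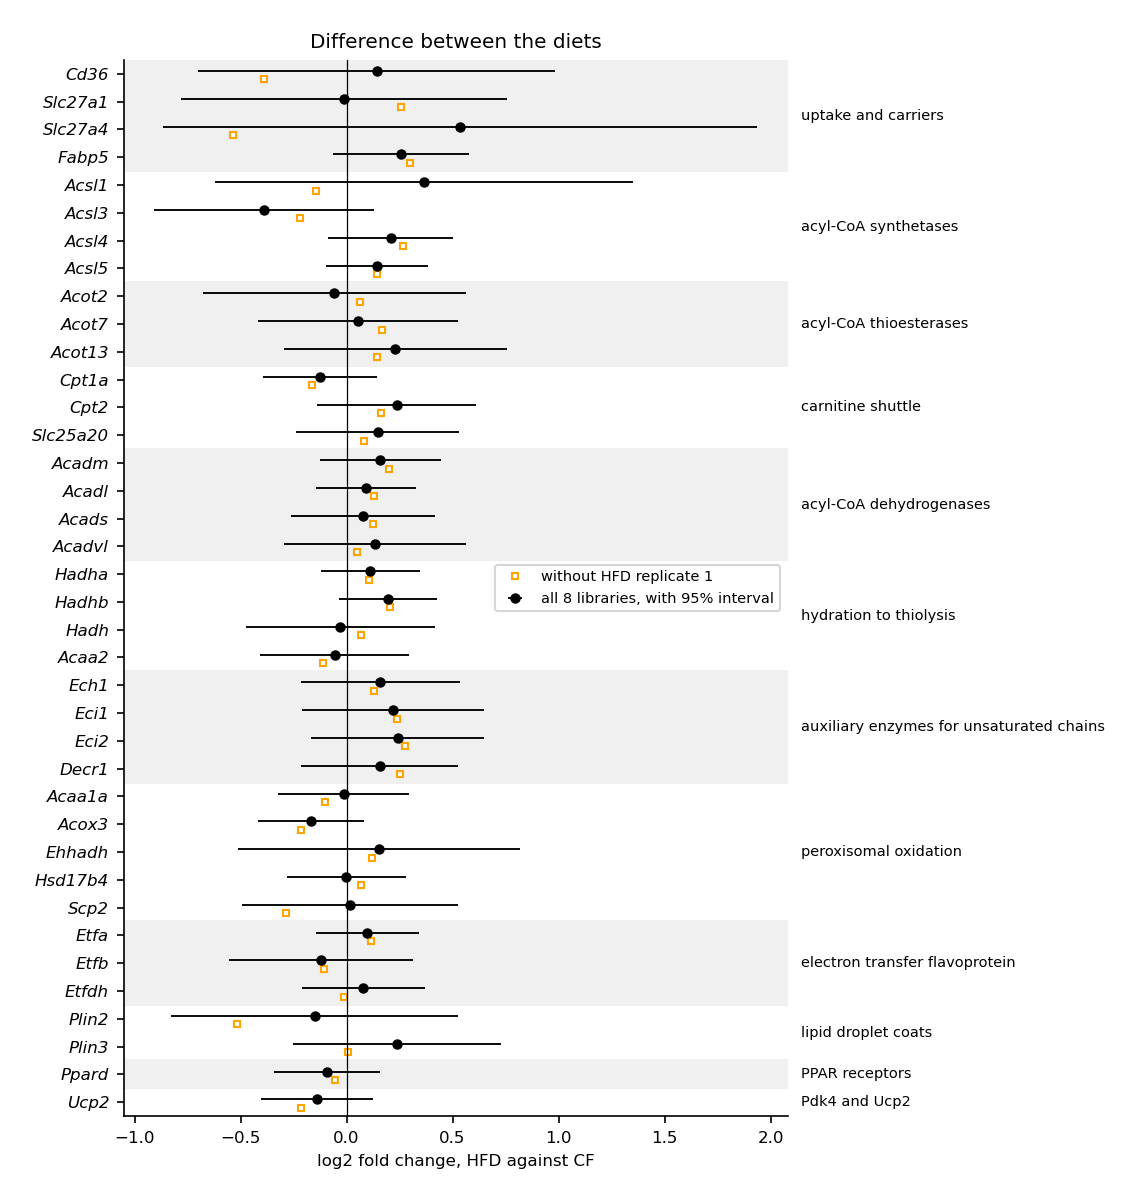
Log2 fold change of HFD against CF for 38 members by role (horizontal axis), with black points and 95% intervals from all 8 libraries and orange squares from the 7 libraries left without HFD replicate 1; Pparg, the member with the fewest counts, is not drawn. Every interval crosses 0, and 9 squares, those of Slc27a4, Cd36, Acsl1 and Scp2 among them, lie on the other side of 0 from their points.

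HFD replicate 1 stood apart from the other 7 libraries in genes outside the members. The summed level of 15 neutrophil genes was 20957 CPM in it, 982 to 3661 in the other HFD libraries and 1995 to 6710 in CF, and all 15 were highest in it. S100a8, an abundant calcium-binding protein of neutrophils, was at 5155 CPM there and at 245 to 1778 elsewhere, and Elane, the elastase of granulocyte progenitors, was at 264 CPM against 17.2 to 119. All 10 erythroid genes (506.7 CPM summed, against 83.3 to 133 elsewhere), all 6 megakaryocyte genes (78.6 against 2.30 to 19.5) and 5 of 6 tissue macrophage genes tested (70.9 against 4.64 to 39.5) were also highest in that library. Vcam1, the most abundant of these macrophage genes, was at 36.4 CPM in it and at 1.495 to 12.9 elsewhere. Flt3, a receptor that defined the sort, was at 88.8 CPM against 227 to 378, and Irf8, a transcription factor of DC progenitors, at 251 against 372 to 674. Csf1r, which encodes CD115, was at 79.4 to 133 CPM and Kit at 34.2 to 53.6 over all 8 libraries, so transcripts of these 3 receptors of the sort were found in every library. In bulk RNA, a different mix of cells and a different amount of RNA per cell cannot be told apart. For the members furthest out in HFD replicate 1, the fold change is therefore given with and without it.

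Of the 8 plasmacytoid DC genes, 6 were higher in HFD at an unadjusted edgeR p under 0.05 and 3 had every HFD library above CF, where 3.71% and 2.81% of protein-coding genes did, and 0 were called. Their sum was 335 to 482 CPM in HFD replicates 2 to 4, 204 in HFD replicate 1 and 198 to 257 in CF, and Siglech, a lectin of plasmacytoid DCs, was at 13.3, 49.5, 33.0 and 62.2 CPM in HFD replicates 1 to 4 and at 13.02 to 17.1 in CF. The 8 conventional DC genes summed to 178 CPM in HFD replicate 1 and 293 to 396 elsewhere, with Xcr1 at 0.642 against 4.37 to 19.1. The 6 monocyte genes reached a sum between 259 and 749 CPM in HFD against 481 to 804 in CF, with Ly6c2 at 40.5 to 160. Of 8 B cell genes, 4 were higher in HFD at an unadjusted edgeR p under 0.05, 2 had every HFD library above CF (against the same 3.71% and 2.81%) and 0 were called, and their sum lay between 49.0 and 113 CPM in HFD and between 50.4 and 80.5 in CF. Of 8 adipocyte and stromal genes, only Cxcl12 (0.362 to 4.81 CPM) and Col1a1 (0 to 2.18 CPM) were tested, while Adipoq, Lep, Cfd, Retn, Lepr and Pdgfra had no row. The part these cells play in the members' levels was not tested.

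Across all members, HFD replicate 1 was the highest of the 8 libraries for 13 (33.3%) and the lowest for 6 (15.4%). For protein-coding genes the shares were 29.9% and 20.9%. Relative to the median of the other 7 libraries it was highest for Pparg (5.46 times), Slc27a4 (4.16 times), Acsl1 (2.47), Cd36 (2.36), Plin3 (1.75), Plin2 (1.72) and Scp2 (1.64), and lowest for Slc27a1 (0.355) and Acsl3 (0.538). For the acyl-CoA dehydrogenases the ratio was between 0.968 and 1.33, and for Hadh, Hadhb, Hadha and Acaa2 between 0.795 and 1.17.

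**Figure D2:**
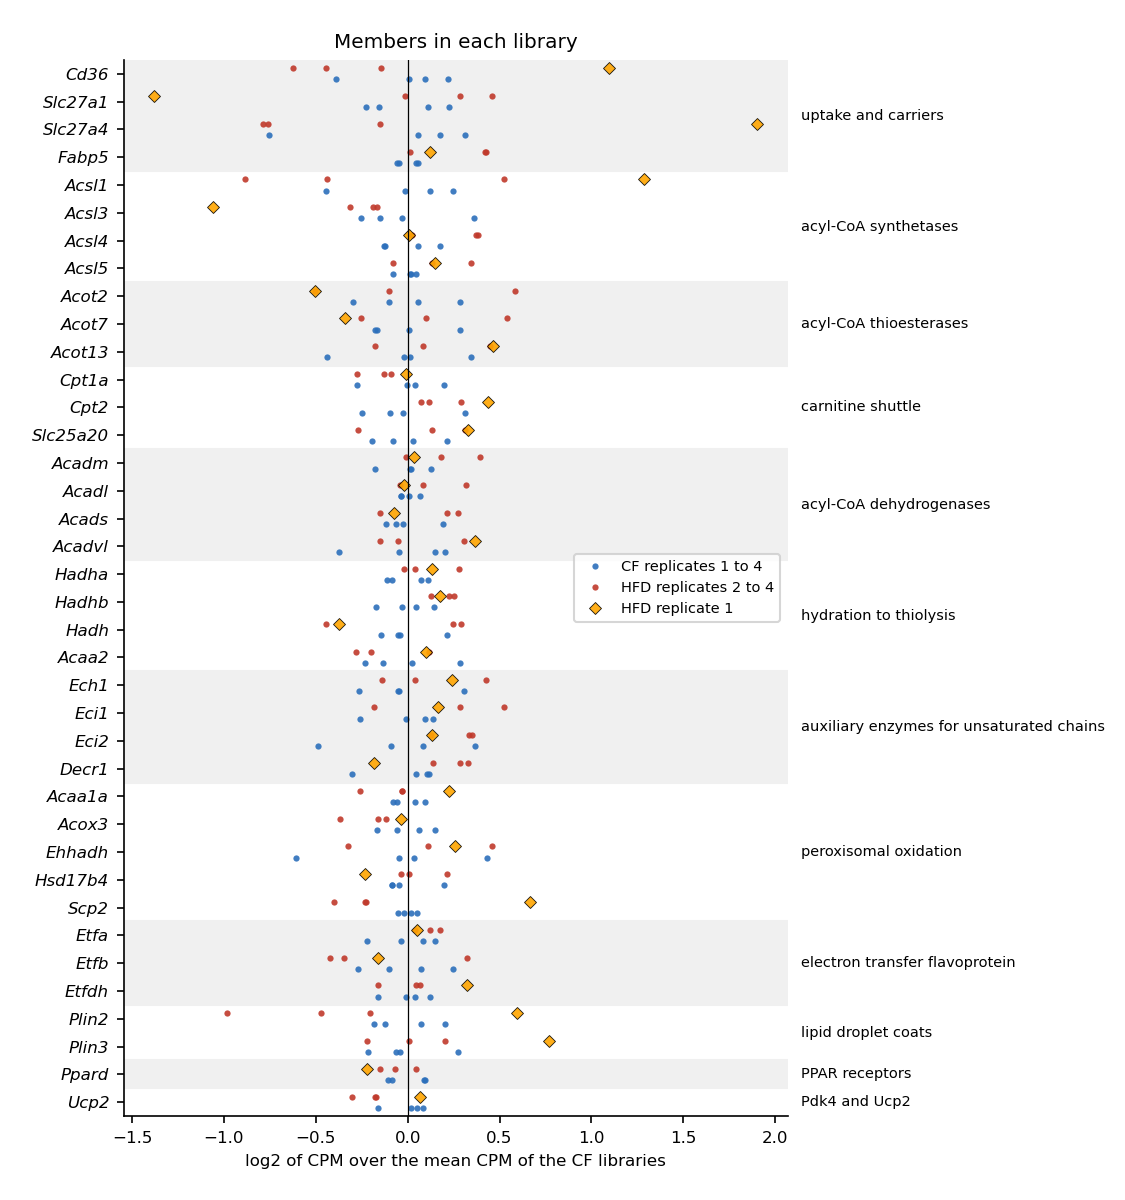
Log2 ratio of each library's CPM to the mean CPM of the CF libraries (horizontal axis) for 38 members by role, with Pparg left out because CF replicate 1 had 0 counts. HFD replicate 1 (orange diamonds) lies far to the right for Slc27a4, Acsl1, Cd36, Plin3, Scp2 and Plin2 and far to the left for Slc27a1 and Acsl3, while for Acadm, Acadl, Acads, Hadha and Hadhb it lies among the other libraries.

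Among the genes of uptake and transport, Fabp5, a cytosolic fatty acid carrier, was at 7.16, 6.64, 8.82 and 8.83 CPM in HFD replicates 1 to 4 and at 6.38, 6.84, 6.80 and 6.32 CPM in CF. HFD replicates 1, 3 and 4 lay above the CF libraries and replicate 2 among them, and the log2 fold change was 0.26 ± 0.14 (SE, 4 libraries a diet; edgeR, adjusted p = 0.734). Slc27a4, a transporter with acyl-CoA synthetase activity, was at 47.9, 11.5, 7.42 and 7.55 CPM in HFD and at 7.60, 14.4, 15.9 and 13.3 CPM in CF. Only HFD replicate 1 was outside the CF range by a wide margin, at 4.16 times the median of the other 7, and its fold change had the widest interval of this role (0.54, −0.86 to 1.94 on the log2 scale; adjusted p = 0.899). Without HFD replicate 1 the value was −0.54 (edgeR, adjusted p = 0.403), and with all libraries and a score of the neutrophil genes as covariate it was 0.48 (unadjusted p = 0.00431, edgeR adjusted p = 0.0822, the lowest of the members in that fit). Slc27a1, the family member with the highest level per kilobase, went the other way in that library, with 11.3, 29.1, 40.5 and 35.8 CPM in HFD and 31.8, 25.1, 26.4 and 34.4 CPM in CF. Its fold change was −0.01 (−0.78 to 0.76; adjusted p = 0.999) and became 0.26 without HFD replicate 1 (edgeR, adjusted p = 0.475). Cd36, the scavenger receptor that brings long chains into cells, ranged from 5.29 to 17.4 CPM with the top value again in HFD replicate 1 (0.14, adjusted p = 0.966; −0.39 and adjusted p = 0.395 without it). For Cd36, Slc27a1 and Slc27a4 alike, HFD replicate 1 was the library furthest from the others.

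The following members were picked after their values were seen. Read across the libraries in the order of their summed neutrophil genes, from lowest to highest, Slc27a4 was at 7.55, 7.42, 7.60, 11.5, 13.3, 15.9, 14.4 and 47.9 CPM. This order mixes the diets, with HFD replicates 4 and 3 at its low end, HFD replicate 1 at its high end and CF replicate 1 between HFD replicates 3 and 2. In the same order Acsl1 was at 16.7, 12.3, 16.6, 32.5, 24.6, 22.4, 26.9 and 55.2 CPM, Plin2 at 20.5, 11.96, 20.8, 17.0, 21.7, 24.8, 27.2 and 35.7 CPM, and Scp2 at 22.2, 19.7, 25.6, 22.3, 26.4, 25.1, 27.0 and 41.2 CPM. Hadhb, the least variable member, stayed between 17.1 and 23.0 CPM. In that order Cd36 was at 5.99, 7.37, 9.51, 5.29, 6.21, 8.69, 8.21 and 17.4 CPM. Plin3 was at 13.8, 10.3, 10.4, 12.1, 11.5, 11.7, 14.5 and 20.4 CPM. Slc27a4, Acsl1, Plin2, Scp2, Cd36 and Plin3 were each highest in the last of these libraries, HFD replicate 1. The part of neutrophil RNA in their levels was not tested. With the neutrophil score as covariate, the 4 members under an unadjusted p of 0.05 were Slc27a4, Acsl1 (0.43, edgeR adjusted p = 0.28), Acsl3 (−0.50, adjusted p = 0.331) and Slc27a1 (−0.37, adjusted p = 0.36), where 6.06% of all genes were higher and 7.82% lower by that rule. In the same fit Cd36 was 0.15, Plin3 0.31 and Pparg 0.04.

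**Figure D3:**
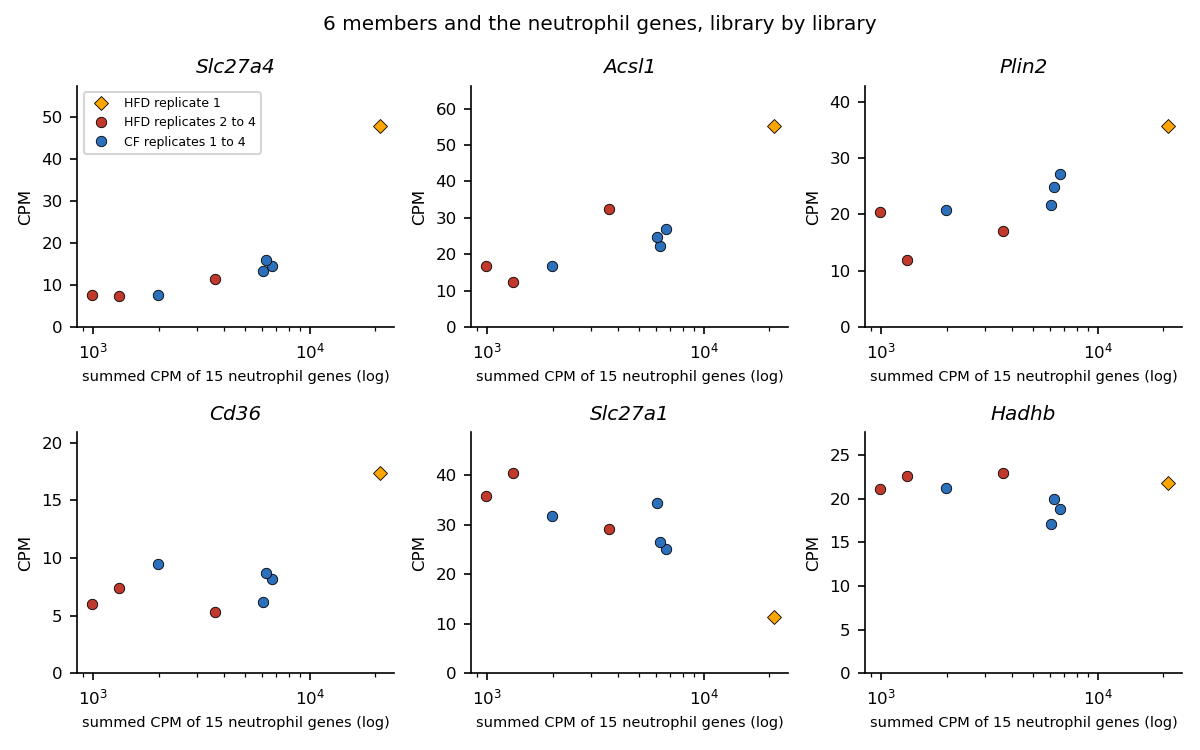
CPM of 6 members (vertical axes, from 0) against the summed CPM of 15 neutrophil genes (horizontal axes, log scale), with 1 point per library. Slc27a4, Acsl1 and Plin2 are highest and Slc27a1 lowest in HFD replicate 1 (orange diamond), and Hadhb is nearly level over all 8 libraries.

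Acyl-CoA synthetases trap a fatty acid in the cell by joining it to coenzyme A. Acsl3, which serves droplet formation at the endoplasmic reticulum, was at 3.66, 6.70, 6.79 and 6.14 CPM in HFD and at 6.41, 6.87, 9.79 and 7.46 CPM in CF. The lowest value was in HFD replicate 1 and the others overlapped (−0.39 ± 0.23, adjusted p = 0.758; −0.22 and edgeR adjusted p = 0.601 without HFD replicate 1). Acsl4, which prefers arachidonate, was at 43.2, 55.6, 43.6 and 55.9 CPM in HFD and at 48.4, 44.6, 39.2 and 39.5 CPM in CF (0.21 ± 0.13, adjusted p = 0.774). HFD replicates 2 and 4 were above the CF range, and the other HFD libraries within it. Acsl5, with the highest level per kilobase of the synthetases, was at 47.8, 47.3, 40.8 and 54.7 CPM in HFD and at 43.6, 43.6, 44.6 and 40.9 CPM in CF (0.14 ± 0.11, adjusted p = 0.817). Acsl1, the main synthetase of oxidative and fat tissues, ranged from 12.3 to 55.2 CPM, and its top value was in HFD replicate 1 and its next, 32.5 CPM, in HFD replicate 2 (0.37, −0.62 to 1.35; −0.14 and adjusted p = 0.862 without HFD replicate 1). The exons of Acsl1 overlap those of Gm45244 on the other strand, and those of Acsl3 overlap Utp14b on the same strand, so that reads there may have been shared.

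Acyl-CoA thioesterases release the fatty acid from coenzyme A again. Acot13 was at 3.92, 2.52, 3.02 and 3.88 CPM in HFD and at 2.09, 2.86, 2.80 and 3.61 CPM in CF (0.23 ± 0.23, adjusted p = 0.877). Acot7, the cytosolic enzyme abundant in brain and macrophages, was at 16.6, 17.6, 22.6 and 30.5 CPM in HFD and at 18.7, 25.6, 21.2 and 18.6 CPM in CF (0.06 ± 0.21, adjusted p = 0.98). For both the diets overlapped over most of the range. Acot2, the mitochondrial form, ranged from 3.08 to 6.56 CPM (−0.06, adjusted p = 0.983), and since its transcript is 95.1% identical over 1274 nt to that of its neighbour Acot1, the division of reads between them is uncertain.

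In the carnitine shuttle, Cpt1a, the outer-membrane transferase that sets the rate of entry into mitochondria, was at 55.5, 51.1, 52.5 and 46.1 CPM in HFD and at 55.8, 64.1, 57.4 and 46.2 CPM in CF. CF replicates 1 to 3 were above every HFD library, replicate 1 by a narrow margin, and CF replicate 4 was level with the lowest HFD library. The log2 fold change was −0.12 with an interval of −0.39 to 0.15 (adjusted p = 0.87). Cpt2, its partner on the inner membrane, was at 8.12, 6.29, 7.32 and 6.50 CPM in HFD and at 5.61, 7.44, 5.89 and 5.04 CPM in CF, with all HFD libraries above 3 of the 4 CF libraries (0.24 ± 0.17, adjusted p = 0.81). Slc25a20, the carrier that exchanges acylcarnitine for carnitine, ranged from 6.26 to 9.47 CPM (0.15, adjusted p = 0.90). Its transcript is 98.4% identical over 366 nt to Tmem72, which has a row, and has similar matches to several genes without a row. The transferases thus differed in sign, and neither passed the test.

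Each acyl-CoA dehydrogenase takes the first step of a turn for its own chain lengths. Acadm, for medium chains, was at 14.8, 14.3, 16.3 and 18.9 CPM in HFD and at 15.8, 14.6, 12.8 and 14.6 CPM in CF (0.16 ± 0.13, adjusted p = 0.834). Acadl, for long chains, was at 33.7, 33.2, 36.2 and 42.5 CPM in HFD and at 35.7, 33.2, 33.3 and 34.3 CPM in CF (0.09 ± 0.10, adjusted p = 0.898). HFD replicate 4 was the highest library for both, and the remaining HFD libraries were close to CF. Acads, for short chains, ranged from 6.36 to 8.54 CPM (0.08, adjusted p = 0.951), and Acadvl, for very long chains, from 4.37 to 7.29 CPM (0.13, adjusted p = 0.931). The fold changes of all 4 lay between 0.08 and 0.16, with the median of protein-coding genes at 0.07. Acadvl shares 1151 nt of exon with Dvl2 on the opposite strand.

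Hadha and Hadhb encode the subunits of the mitochondrial trifunctional protein, which carries long chains through the last 3 steps of a turn. They are divergent neighbours whose starts lie 85 bases apart in GENCODE vM21 and further apart in RefSeq, and the GENCODE interval is shown because both genes are read outward from it. It is given in GRCm38.p6 on the plus strand at chr5:30155163-30155247, between the start of Hadha on the minus strand and the start of Hadhb on the plus strand. The 9 CG pairs are in capitals, and its GC content is 69.4%.

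Hadha and Hadhb: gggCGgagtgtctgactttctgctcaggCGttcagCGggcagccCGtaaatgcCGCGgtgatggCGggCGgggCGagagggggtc

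Hadhb, the subunit with the thiolase, was at 21.8, 23.0, 22.5 and 21.1 CPM in HFD and at 21.3, 18.9, 19.9 and 17.1 CPM in CF. The ranges met at a single pair, HFD replicate 4 at 21.1 and CF replicate 1 at 21.3, and 3 of the 4 HFD libraries were above all of CF. Hadhb had the lowest p of all members, and its log2 fold change was 0.20 ± 0.10 with an interval of −0.03 to 0.43 (edgeR, adjusted p = 0.693). Hadha, the subunit with the hydratase, was at 50.9, 45.9, 47.7 and 56.3 CPM in HFD and at 42.9, 50.2, 48.8 and 43.8 CPM in CF (0.11 ± 0.10, adjusted p = 0.861). Only HFD replicates 1 and 4 were above the CF range of Hadha. Acaa2, the mitochondrial thiolase of medium chains, was at 14.2, 11.6, 10.9 and 14.4 CPM in HFD and at 11.3, 16.2, 13.5 and 12.1 CPM in CF (−0.06 ± 0.16, adjusted p = 0.97). Hadh, the dehydrogenase of medium and short chains, ranged from 8.75 to 14.6 CPM (−0.03, adjusted p = 0.986), with HFD libraries at both ends.

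Double bonds in natural fatty acids have to be moved or reduced before a turn can be completed, which is the work of the auxiliary enzymes. Eci2, an enoyl-CoA isomerase, was at 11.2, 11.2, 13.04 and 12.9 CPM in HFD and at 10.9, 13.2, 9.60 and 7.28 CPM in CF (0.24 ± 0.18, adjusted p = 0.82). Eci1, the mitochondrial isomerase, was at 4.69, 3.68, 5.09 and 6.02 CPM in HFD and at 4.60, 3.50, 4.47 and 4.16 CPM in CF (0.22 ± 0.19, adjusted p = 0.845). All 4 HFD libraries of Eci2 and 3 of 4 of Eci1 were above the median of CF, and the ranges overlapped. The transcript of Eci2 is 96.3% identical over 483 nt to Gm15280 and 95.9% over 612 nt to Gm15287, neither with a row. Ech1, a dienoyl-CoA isomerase, was at 18.5, 16.0, 14.2 and 21.0 CPM in HFD and at 12.997, 19.3, 15.1 and 15.0 CPM in CF (0.16 ± 0.17, adjusted p = 0.883), and Decr1, the dienoyl-CoA reductase, ranged from 5.82 to 9.03 CPM (0.16, adjusted p = 0.883). All 4 fold changes were above 0 and none passed the test.

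In peroxisomes, Acox3, an oxidase of branched chains, was at 40.6, 37.2, 38.4 and 32.2 CPM in HFD and at 43.4, 40.0, 37.0 and 46.1 CPM in CF. Its levels overlapped, with the lowest in HFD replicate 4 and the highest in CF replicate 4 (−0.17 ± 0.11, adjusted p = 0.796). Ehhadh, the bifunctional enzyme that PPARα switches on in liver, was at 1.51, 1.01, 1.73 and 1.36 CPM in HFD and at 1.29, 0.827, 1.70 and 1.22 CPM in CF (0.15 ± 0.29, adjusted p = 0.95), from 26 to 66 counts per library. Scp2, the sterol carrier and branched-chain thiolase, was at 41.2, 22.3, 19.7 and 22.2 CPM in HFD and at 25.6, 27.0, 25.1 and 26.4 CPM in CF. HFD replicate 1 was above and the other HFD libraries below every CF library, so that the fold change was 0.02 with all libraries (adjusted p = 0.996), −0.28 without HFD replicate 1 (unadjusted p = 0.0167, edgeR adjusted p = 0.214), and 0.07 with the neutrophil score as covariate (unadjusted p = 0.584). The transcript of Scp2 is 99.6% identical over 1371 nt to the pseudogene Scp2-ps2. Hsd17b4, the main bifunctional enzyme of peroxisomes, ranged from 21.7 to 29.5 CPM (−0.002, adjusted p = 0.999), and Acaa1a, the peroxisomal thiolase, from 6.95 to 9.72 CPM (−0.01, adjusted p = 0.992). Acaa1a is 98.7% identical over 783 nt to Acaa1b, which has no row in the table.

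Etfa and Etfb encode the flavoprotein that accepts electrons from the dehydrogenases, and Etfdh the oxidoreductase that hands them to ubiquinone. Etfa was at 24.7, 24.6, 26.0 and 27.0 CPM in HFD and at 25.3, 26.5, 23.3 and 20.6 CPM in CF (0.10 ± 0.11, adjusted p = 0.893). Etfb was at 11.6, 9.66, 10.2 and 16.2 CPM in HFD and at 12.1, 15.3, 13.6 and 10.7 CPM in CF (−0.12 ± 0.19, adjusted p = 0.935). The subunits overlapped between diets and differed in sign, and Etfb shares 617 nt of exon with Gm45233 on the same strand. Etfdh ranged from 13.6 to 19.0 CPM with its top value in HFD replicate 1 (0.08, adjusted p = 0.937; −0.01 without it).

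Plin2 encodes the perilipin found on droplets of most cells, and its protein rises when cells are loaded with lipid. It was at 35.7, 17.0, 11.96 and 20.5 CPM in HFD and at 20.8, 27.2, 24.8 and 21.7 CPM in CF. HFD replicate 1 was above every CF library and the other 3 HFD libraries were below every CF library, with a log2 fold change of −0.15 and an interval of −0.83 to 0.52 (adjusted p = 0.953). Without HFD replicate 1 it was −0.52 (unadjusted p = 0.0213, edgeR adjusted p = 0.239), and with the neutrophil score as covariate −0.08 (unadjusted p = 0.677). Plin3, which moves from the cytosol to young droplets, was at 20.4, 12.1, 10.3 and 13.8 CPM in HFD and at 10.4, 14.5, 11.7 and 11.5 CPM in CF (0.24 ± 0.22, adjusted p = 0.859), and 0.01 without HFD replicate 1. Plin2 and Scp2 were the 2 members under an unadjusted p of 0.05 once HFD replicate 1 was left out, 2 of 39 where 6.61% of protein-coding genes were lower by that rule.

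Of the PPARs, Ppard, the receptor expressed in most tissues, was at 12.1, 13.4, 14.5 and 12.6 CPM in HFD and at 13.02, 14.9, 14.99 and 13.3 CPM in CF (−0.09 ± 0.11, interval −0.34 to 0.16, adjusted p = 0.903). Pparg, the receptor of fat cells and some macrophages, was at 1.06, 0.189, 0.0787 and 0.194 CPM in HFD and at 0, 0.541, 0.787 and 0.286 CPM in CF, or 0 to 33 counts per library. The 0 in CF replicate 1 allows up to 3 of its 48409689 counts, by counting error alone, and the interval of Pparg ran from −2.52 to 2.34, too wide to bound a difference (−0.09; −1.35 without HFD replicate 1). Ucp2, a carrier of the inner mitochondrial membrane that blood cells express strongly, was at 213.9, 180.6, 165.6 and 181.2 CPM in HFD and at 182.4, 216.5, 211.2 and 206.7 CPM in CF. HFD replicates 2 to 4 were below every CF library and HFD replicate 1 among them (−0.14 ± 0.12, adjusted p = 0.84; −0.22 and adjusted p = 0.41 without HFD replicate 1).

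The promoters of the members were read for the letters that PPARs and related receptors bind. RefSeq entries on GRCm38.p6 gave the 250 bases before a start for 34 of the 39 members, in 39 promoters, since some genes have several starts. The direct repeat of PPARs, a pair of AGGNCA half-sites in the same direction with 1 base between them, was found on either strand in 0 of the 34 and in 0.338% of the 32817 RefSeq promoters. The extended half-site TNAAGGTCA was in 0 members and 1.14% of promoters. The half-site AGGTCA, which overlaps both of these, was in 8 of the 39 promoters, from 7 members (Acadm, Acadvl, Cd36, Cpt1a, Plin2, Pparg and Scp2), and in 14.0% of RefSeq promoters. Counted by gene, with a match in any of its promoters, it was in 7 of 34 members and 15.8% of the 27025 genes with a RefSeq promoter. The half-sites of the entry step, an uptake receptor and a droplet coat are given from RefSeq on GRCm38.p6, in the direction of transcription, with the half-site in capitals (TGACCT is AGGTCA on the other strand). They lie at chr19:3323197-3323222 on the plus strand for Cpt1a, and on the minus strand at chr5:17836109-17836134 for Cd36 and chr4:86670262-86670287 for Plin2. A match is only a run of letters, and no binding was measured in these cells.

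Cpt1a: gtttccttacTGACCTcctccccgca

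Cd36: ctgcactttaTGACCTgagattttca

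Plin2: tcaggaccccTGACCTaagtcagaca

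Levels can be compared between genes only per length of exon. On the scale of CPM per kilobase of exon, averaged over all 8 libraries, Ucp2 was highest of the members with 27.9 ± 2.78 (SD, n = 8). Acadl followed with 17.6 ± 1.57 and Etfa with 13.5 ± 1.12, and each of these 3 was above the next by more than their joint spread. From Etfb (10.7 ± 2.06) and Acot7 (10.1 ± 2.22) down to Acsl3 (1.54 ± 0.386), no neighbours in the order differed beyond their spread. Ehhadh (0.446 ± 0.106) and Pparg (0.133 ± 0.126) were set off at the bottom. In all, 5 of 38 neighbouring pairs differed by more than the spread. Within a role, Acadl exceeded Acadm (3.90), Acads (3.20) and Acadvl (2.21), while among the synthetases Acsl5 (9.34) and Acsl4 (8.56) lay above Acsl1 (2.47) and Acsl3 (1.54). Cpt1a (7.01) was above Cpt2 (2.73), and Ppard was at 1.81. With the length of the longest transcript in place of all exons, Ucp2, Acadl and Etfa kept ranks 1 to 3. Others moved, with Cpt1a going from rank 12 to 7, Acox3 from 20 to 12 and Ppard from 35 to 25. Acaa2 fell from rank 7 to 16 and Acsl4 from 8 to 15.

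**Figure D4:**
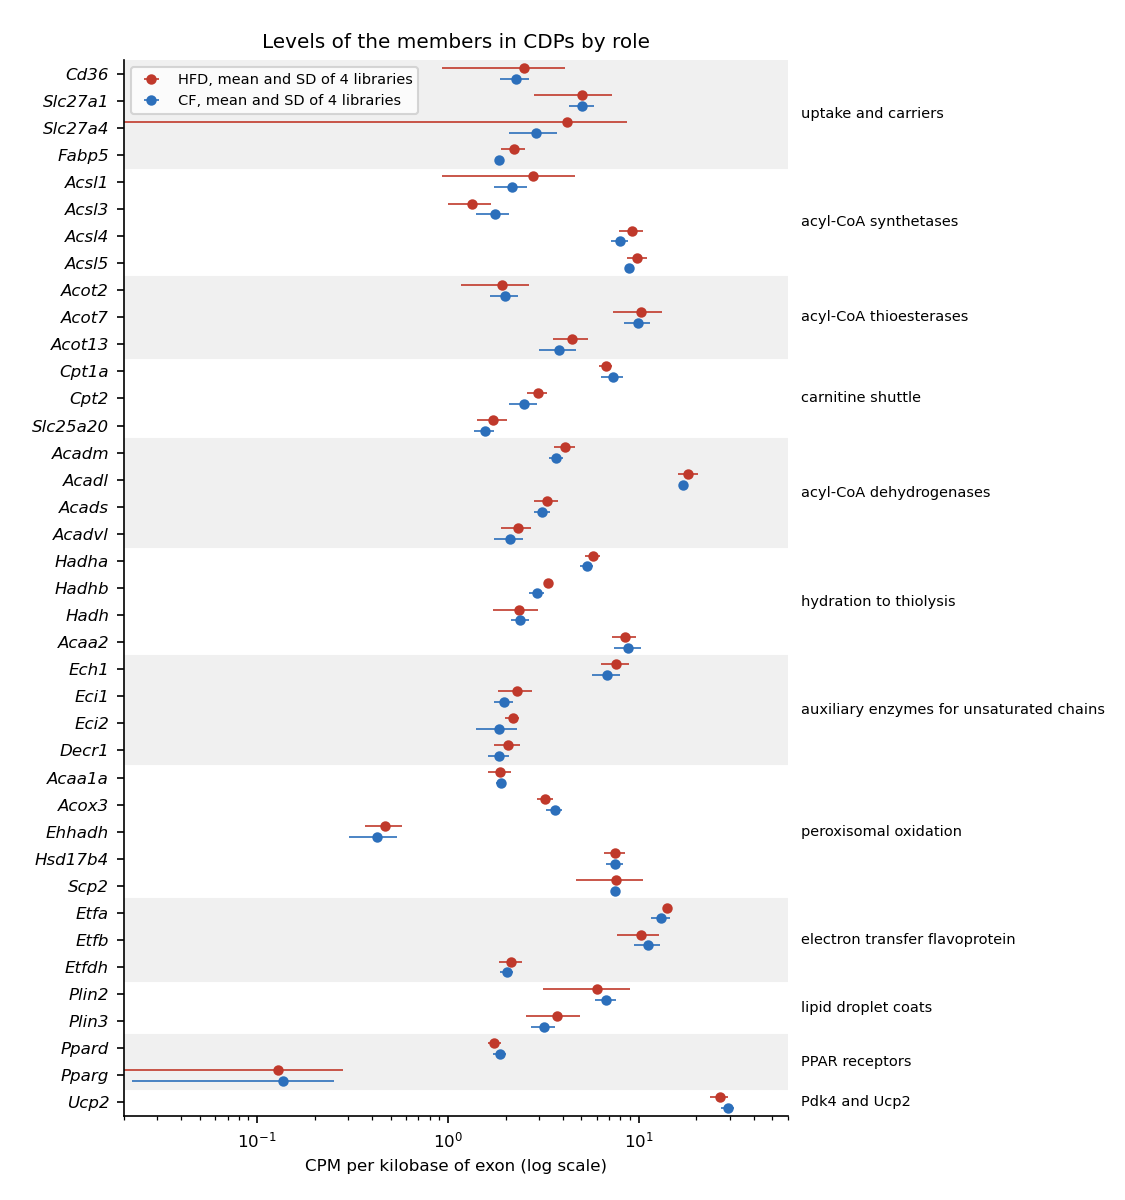
Mean CPM per kilobase of exon (horizontal axis, log scale) of 39 members by role, with the SD of 4 libraries for HFD (red) and CF (blue); a bar that reaches the left edge has an SD larger than its mean. Ucp2, Acadl and Etfa lie furthest to the right, Ehhadh and Pparg furthest to the left, and 0 members were called between the diets.

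The remaining genes of the pathway were taken from 7 lists with 117 genes, of which 84 were in the table and tested. Of these 84, 0 were called in either direction, where 0.423% of all genes and 0.034% of protein-coding genes were. At an unadjusted edgeR p under 0.05, 1 was higher and 1 lower, where 3.71% and 1.67% of protein-coding genes were. The median log2 fold change of the 84 was 0.07. Acot1, the cytosolic thioesterase beside Acot2, was at 2.12, 1.92, 2.23 and 1.67 CPM in HFD and at 3.02, 2.48, 2.55 and 3.66 CPM in CF, with no overlap (−0.56, unadjusted p = 0.0227, adjusted p = 0.415). Acad10, a dehydrogenase relative, was at 1.64, 1.79, 2.47 and 1.99 CPM in HFD and at 1.09, 0.922, 1.67 and 1.51 CPM in CF (0.61, adjusted p = 0.579). Both are low in these cells, and neither passed the adjusted test. Crot, which moves medium chains from peroxisomes to carnitine, lay between 22.5 and 24.9 CPM in HFD and between 17.4 and 22.3 in CF, again without overlap (0.24, adjusted p = 0.63), and Acad9, a dehydrogenase that also assembles complex I, between 8.37 and 9.53 CPM in HFD and between 6.67 and 8.21 in CF (0.24, adjusted p = 0.676). In all, 2 of the 84 genes had every HFD library above CF and 1 had every HFD library below, where the shares of protein-coding genes were 2.81% and 0.951%. The lowest p of the remaining lists belonged to Slc27a3 among uptake genes (0.60, adjusted p = 0.813), Pecr among peroxisomal genes (adjusted p = 0.737, at 0 to 1.22 CPM) and Med1, a coactivator of PPARs, among regulators (−0.34, adjusted p = 0.686).

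Of 17 genes of triglyceride storage and lipolysis tested, 8 (47.1%) were highest in HFD replicate 1 and 0 lowest. Of protein-coding genes 29.9% were highest and 20.9% lowest there, a difference that was not tested. The lowest p was that of Agpat2, an acyltransferase (0.43, adjusted p = 0.805, and 0.04 without HFD replicate 1). With the neutrophil score as covariate Agpat2 was 0.53 and was called higher (edgeR, adjusted p = 0.0497), where 0.606% of all genes were. The following were picked after their values were seen. Dgat1, which makes triglyceride, was at 50.7, 10.5, 6.82 and 5.92 CPM in HFD and at 11.3, 17.0, 21.5 and 16.8 CPM in CF. HFD replicate 1 was above and the other 3 HFD libraries were below all of CF (0.15, adjusted p = 0.982; −1.10 and adjusted p = 0.0896 without HFD replicate 1, where the summed neutrophil genes of the 3 HFD libraries, 982 to 3661 CPM, were mostly under the 1995 to 6710 CPM of CF; −0.03 and adjusted p = 0.967 with all libraries and the neutrophil score as covariate). Without HFD and CF replicate 1 together, Dgat1 was −1.25 and was called lower (edgeR, adjusted p = 0.0325), where 2.21% of all genes were. Abhd5, the activator of adipose triglyceride lipase, was at 51.4, 12.5, 5.61 and 6.55 CPM in HFD and at 7.60, 18.4, 16.8 and 16.7 CPM in CF, and Dgat2 at 25.7, 3.24, 1.31 and 1.29 CPM and 1.83, 6.90, 7.46 and 5.59 CPM. Leaving out HFD replicate 1 took Abhd5 from 0.36 to −0.85 (edgeR, adjusted p = 0.333) and Dgat2 from 0.53 to −1.49 (adjusted p = 0.235), while with the neutrophil score as covariate they were 0.25 and 0.12. Mgll, the monoglyceride lipase, and G0s2, an inhibitor of adipose triglyceride lipase, were at 15.7 and 9.44 CPM in HFD replicate 1, which was 8.25 and 5.77 times the median of the other 7 libraries. Their fold changes were 1.05 and 0.08 with all libraries, −0.93 and −1.73 without HFD replicate 1, and 0.46 and −0.16 with the covariate. Pnpla2, the lipase itself, ranged only from 14.0 to 18.6 CPM and Lipe from 17.1 to 25.4 CPM. Abcd2, a peroxisomal importer of another list, was at 41.9, 12.0, 5.46 and 5.05 CPM in HFD and at 11.4, 17.6, 16.1 and 16.6 CPM in CF, with HFD replicate 1 above every CF library and HFD replicates 3 and 4 below (0.06; −1.04 and edgeR adjusted p = 0.165 without HFD replicate 1; −0.11 with the covariate).

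**Figure D5:**
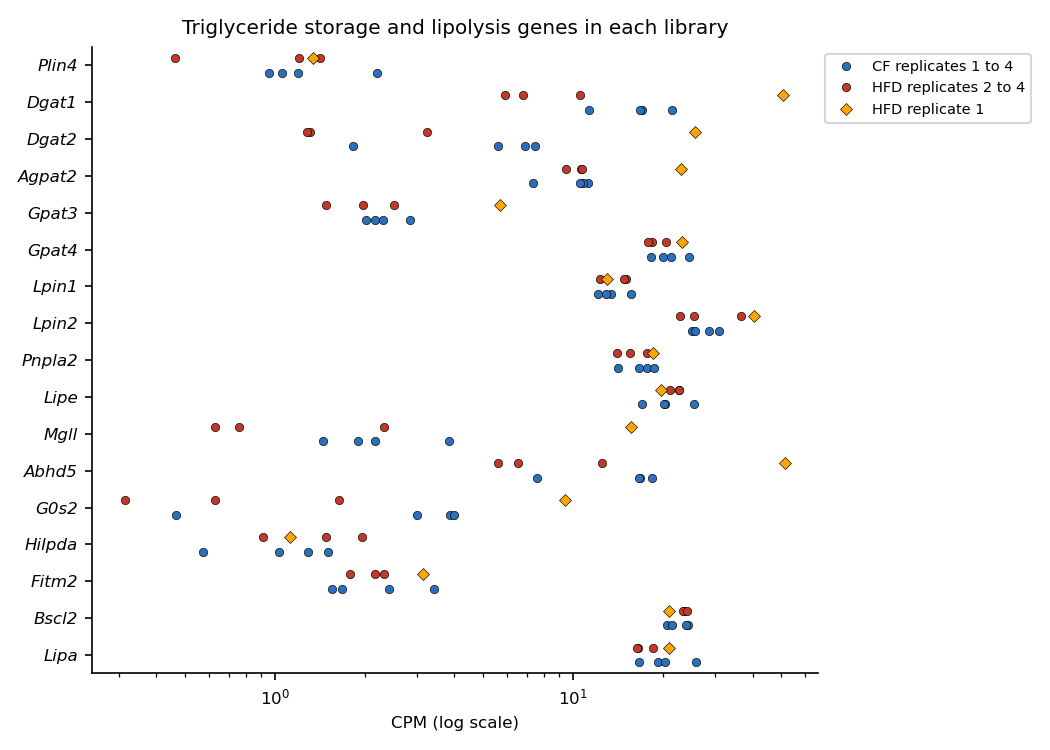
CPM (horizontal axis, log scale) of 17 genes of triglyceride storage and lipolysis in each library. HFD replicate 1 (orange diamonds) lies right of all others for Dgat1, Dgat2, Agpat2, Gpat3, Lpin2, Mgll, Abhd5 and G0s2. Pnpla2, Lipe, Lpin1 and Bscl2 spread less, with Lipe from 17.1 to 25.4 CPM.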

How the data were processed

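The authors deposited whole-number counts per gene, not normalized, for 8 libraries of total RNA made with the NuGen Ovation Solo kit. The submitters' notes name cutadapt, HISAT2 and StringTie on GRCm38, and whether counting used strand is not given in the sources used here. Totals ranged from 28203651 to 48409689 counts, of which 11819701 to 15164732 fell on protein-coding genes. CF replicate 1 had the highest total, with 13709549 counts on protein-coding genes, and the lowest TMM factor. The TMM factors were 1.007, 1.127, 1.111 and 1.058 in HFD replicates 1 to 4. In CF replicates 1 to 4 they were 0.7995, 0.88, 0.9026 and 1.181. Columns were matched to libraries by the sample number in their names. Symbols, exon lengths and overlaps came from GENCODE vM21, in which 16067 of 16119 rows were found.

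Counts were tested in R 4.3.3 with edgeR 4.0.16 (filterByExpr, TMM, robust quasi-likelihood fit, diet as the only term), and p-values were adjusted by Benjamini-Hochberg over all 15837 genes tested. CPM were scaled by TMM. SEs were taken from the fold change and its F statistic. The study's own comparison of the diets was made with Ballgown, which was not used here. P-values measure the spread between these libraries, which the methods call independent isolates. Copies were sought with BLAST at 95% identity over 300 nt. Alternatives included DESeq2 1.42.0 and limma 3.58.1. On simulated data of 15723 genes with known changes between HFD and CF, edgeR called 1.49% of genes changed 1.5-fold, 28.8% at 2-fold and 67.2% at 4-fold, and 5.97% of its calls were false. Every member was named, with values in every library for the 2 lowest p and the highest level of each role and for the PPARs, and the lowest p of each further list. The members and lists were chosen with earlier results of these data known. One gene of a marker list is not reported here.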

Additional observations from a re-analysis of the deposited data

Results flagged for a closer look

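In each diet the CPM of every member was checked for a library far from the other 3. Of the 78 groups of 4 libraries, 4 held such a library, where chance gives about 1 in 20. HFD replicate 1 was set apart as high for Slc27a4 (47.9 CPM), Scp2 (41.2 CPM) and Pparg (1.06 CPM), which made 3 of the 4. CF replicate 2 was high for Hsd17b4 (29.2 CPM).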

How the results depend on the processing

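No member was called under any of the 19 alternatives, and the direction of 667 of 740 recomputed fold changes was kept. For the results below whose value or sign moved, the cause was not tested. With library size alone as the scaling, all genes shifted upward (median 0.05 before and 0.25 after), the members' median became 0.31 and the members above 0 from 25 to 38, 5 were higher at an unadjusted p under 0.05 (9.92% of all genes), and 24 of 39 members were above the median of all genes under either scaling. With that scaling the sign turned for Acox3 (0.015), Ucp2 (0.0432), Cpt1a (0.0887), Plin2 (0.0234), Ppard (0.11), Etfb (0.0842), Acot2 (0.16), Slc27a1 (0.18), Acaa2 (0.14), Acaa1a (0.17), Hsd17b4 (0.20), Hadh (0.18) and Pparg (0.0531). With a neutrophil score as covariate, 2 members were higher and 2 lower at an unadjusted p under 0.05 (6.06% and 7.82% of all genes), 1 of 84 other pathway genes (Agpat2) was called higher (0.606% of all genes), and the sign turned for Acot7 (−0.0569), Acaa1a (0.0085) and Pparg (0.0371). Voom turned Scp2 (−0.0564), Pparg (0.38) and Cd36 (−0.0312). Voom with sample quality weights gave 2 lower at an unadjusted p under 0.05 (8.32% of all genes) and turned Acsl1 (−0.15), Acot2 (0.075), Slc27a1 (0.18), Slc27a4 (−0.43), Hsd17b4 (0.0238), Scp2 (−0.20), Hadh (0.0402) and Cd36 (−0.27). Protein-coding genes alone turned Scp2 (−0.028).

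Without both replicates 1, 1 member was higher and 5 lower at an unadjusted p under 0.05 (4.54% and 10.6% of all genes), 1 of 84 other pathway genes (Dgat1) was called lower (2.21% of all genes), and the sign turned for Plin3 (−0.0571), Acsl1 (−0.27), Acot2 (0.17), Slc27a1 (0.30), Slc27a4 (−0.72), Hsd17b4 (0.0502), Scp2 (−0.29), Hadh (0.15) and Cd36 (−0.31). Leaving out each library in turn gave 0 members higher and 0 to 2 lower at an unadjusted p under 0.05, the 2 without HFD replicate 1 (9.76% of all genes). Over these, the fold change ran from −0.0115 to 0.12 for Etfdh, −0.47 to −0.22 for Acsl3, −0.14 to 0.62 for Acsl1, −0.36 to 0.0644 for Acot2, −0.21 to 0.26 for Slc27a1, −0.54 to 0.80 for Slc27a4, −0.12 to 0.0699 for Hsd17b4, −0.28 to 0.13 for Scp2, −0.17 to 0.0856 for Hadh, −0.39 to 0.33 for Cd36, −0.10 to 0.0592 for Acaa1a, −1.35 to 0.46 for Pparg, −0.52 to 0.0451 for Plin2, −0.16 to 0.0542 for Acaa2, −0.0321 to 0.13 for Acadl, −0.034 to 0.15 for Acads, −0.19 to 0.17 for Acot7 and −0.0006001 to 0.33 for Ehhadh.

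The replicate numbers did not pair the libraries (correlations of same-numbered deviations from −0.439 to −0.0779). With the replicate block, 0 of all genes were called, and the sign turned for Slc27a4 (−0.0118), Scp2 (−0.0513) and Cd36 (−0.0132). With the longest transcript as length, 25 of 39 levels moved by more than the spread between replicates. Depth limits Pparg and Ehhadh most.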
